A study of Homo sapiens with 16 samples.

Results

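The FASTK family is a set of mitochondrial RNA proteins named after FASTK, the Fas-activated serine/threonine kinase. It was measured here through every non-control probe that the array names FASTK, FASTKD1, FASTKD2, FASTKD3 or FASTKD5. This gave 8 probes for 5 genes, out of 41000 probes on the array, and all 8 were among the 40982 tested. The arrays were hybridised with RNA from undifferentiated Caco-2 cells, a human colon adenocarcinoma line used as a model of the intestinal epithelium. Cells were stimulated for 6 h with PT-G (gliadin after digestion by pepsin and trypsin), with PT (a blank digest of both enzymes without substrate) or with 150 µg/ml of p31-43, a synthetic gliadin peptide, or stayed in medium alone (MED-CTL). All stimulants and the control used medium with the same low serum, and the enzymes of the digests had been heat-inactivated. The concentrations of PT and PT-G are not given in the sources used here. There were 16 one-colour arrays, 4 per condition, from 4 independent experiments on cells of neighbouring passages.

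Arrays are grouped below into 4 runs, each of which holds 1 array per condition whose data file carries a common date. What was done on that date is not stated. Arrays of a run shared a slide, except the PT array of run 3 and the p31-43 array of run 4, both on slide 5. Within-run differences between either of these arrays and the other arrays of its run therefore also cross slides. In the labels MED-CTL replicate 2 belongs to run 1 and MED-CTL replicate 1 to run 2, while in the other conditions the replicate number equals the run. The median spot intensity of an array was between 153 and 410, its median local background between 48 and 65, and between 27660 and 33947 spots were well above background. Of 12 markers of colon epithelium, 11 were well above background on all 16 arrays, and CDX1 on 1 array. The leukocyte marker PTPRC and the endothelial marker CDH5 were not well above background on any array, while CD3E, CD14, PECAM1, VWF, COL1A1, COL3A1 and LUM were on all 16 and DCN on 8. The log2 of the summed levels of the 4 fibroblast markers was between 10.59 and 11.44 on MED-CTL arrays. It was between 10.43 and 11.20 on PT arrays and between 10.54 and 11.20 on PT-G arrays. For 3 leukocyte markers (PTPRC, CD3E and CD14) it was between 9.69 and 10.36, 9.75 and 10.39, and 9.71 and 9.97, respectively. Their part in the results was not tested.

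Mitochondria carry a small genome that is read as long transcripts, and these are then cut into messenger, ribosomal and transfer RNAs. FASTK family proteins share a set of domains named after FASTK and a domain found in RNA-binding proteins, and most act after transcription, where they set the maturation or the stability of particular mitochondrial RNAs. FASTKD2 lies in mitochondrial RNA granules and is needed for assembly of the mitochondrial ribosome, and it has also been described as pro-apoptotic. FASTK was first described as a partner of the RNA-binding protein TIA1 in Fas-mediated apoptosis, and a mitochondrial form is needed for the RNA of a complex I subunit.

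FASTKD2 and FASTK were the members lowest relative to MED-CTL under both digests by their brightest probes. The study itself had named both genes from these arrays, FASTKD2 as lower under PT and PT-G and FASTK as marginally repressed under PT. Their upstream sequences are shown because both genes moved the same way and their promoters differ in composition. RefSeq sequences upstream of the gene start (assembly GRCh38.p14) were matched for 4 of the 5 members. The 250 bases before the start are given 5′ to 3′ on the gene's strand, at chr2:206765356-206765605 (+) for FASTKD2 and chr7:151080810-151081059 (-) for FASTK. Capitals mark matches to the motifs searched.
FASTKD2 upstream: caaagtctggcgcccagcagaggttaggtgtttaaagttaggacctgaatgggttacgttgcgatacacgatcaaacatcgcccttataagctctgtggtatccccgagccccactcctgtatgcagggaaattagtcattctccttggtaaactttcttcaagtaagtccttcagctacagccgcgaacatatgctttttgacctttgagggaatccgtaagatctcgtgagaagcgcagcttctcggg
FASTK upstream: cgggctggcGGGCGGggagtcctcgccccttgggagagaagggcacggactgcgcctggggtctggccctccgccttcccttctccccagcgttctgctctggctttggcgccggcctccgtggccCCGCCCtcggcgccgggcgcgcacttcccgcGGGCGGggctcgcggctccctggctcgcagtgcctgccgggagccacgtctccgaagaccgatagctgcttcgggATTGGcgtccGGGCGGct
The FASTKD2 stretch has a GC content of 48.4% and the FASTK stretch 75.2%, against a median of 58.0% over 27305 promoters. Searched on both strands were the GC box GGGCGG (in 42.3% of those promoters), the CCAAT box CCAAT (33.0%), the ETS core CCGGAA (14.8%), the NRF-1 motif core TGCGCA (7.05%), the AP-1 site TGACTCA (4.16%) and the EGR core GTGGGCG (8.67%), of which the EGR core overlaps the GC box where a G follows it. FASTK held 4 GC boxes and 1 CCAAT box, FASTKD3 held 2 GC boxes, 2 CCAAT boxes and 1 ETS core, and none of the 6 letter strings was found in these windows of FASTKD1 or FASTKD2. A match describes letters in this window and was not tested as a binding site.

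All values below are log2 normalized intensities of a probe, and differences are treated minus control on the log2 scale. A probe was called in limma at a nominal p under 0.01, the study's own threshold, with the Benjamini-Hochberg adjusted p over all 40982 probes beside it. Levels of different probes are not comparable with each other. In these bulk samples fewer cells expressing a gene and less RNA per cell cannot be told apart. The study describes the experiments as independent, so the spread between arrays holds both culture and array error.

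**Figure D1:**
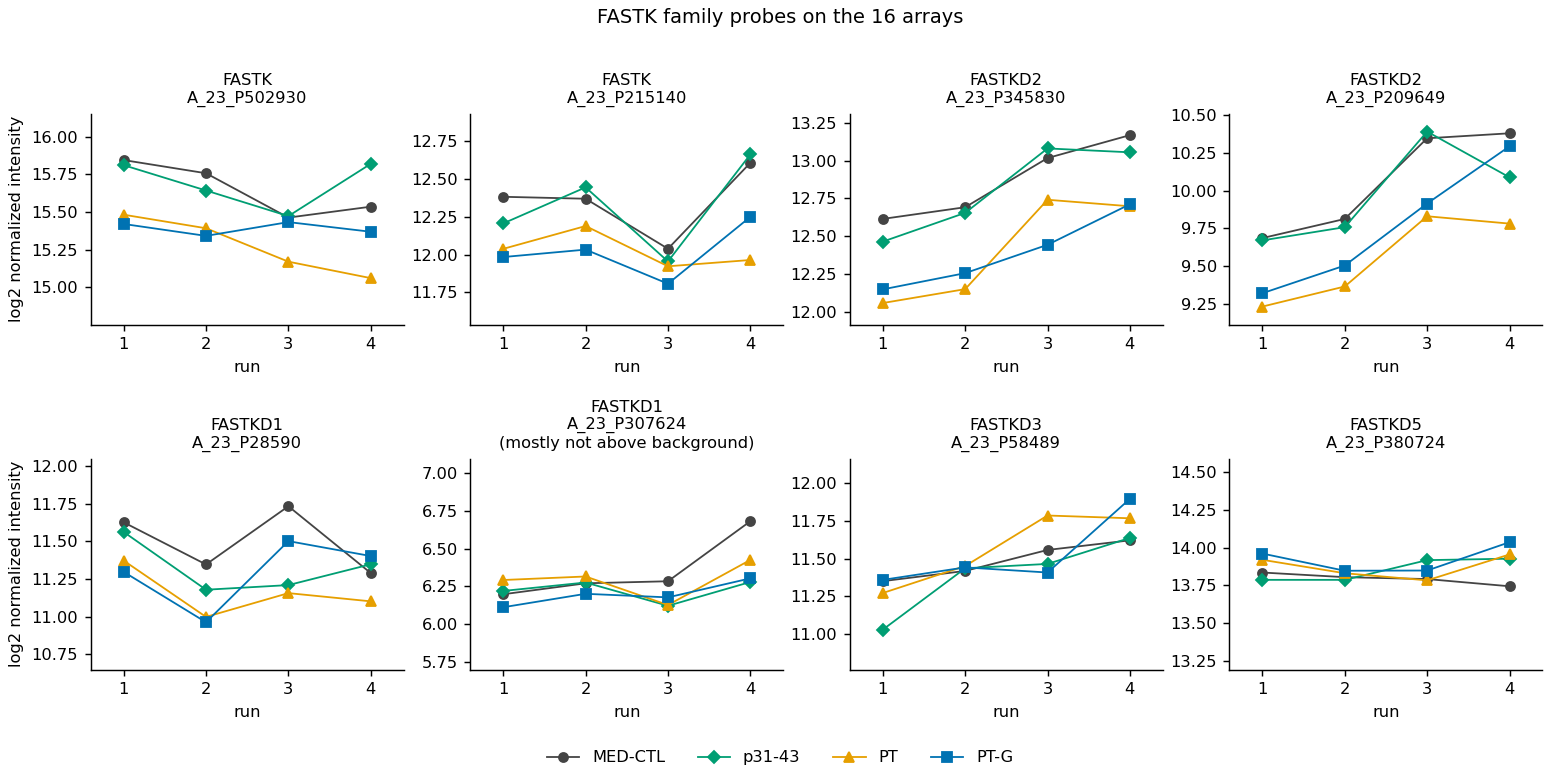
Log2 normalized intensity (vertical axis, each panel spanning the same range of log2 units) of the 8 FASTK family probes on the 16 arrays, by run (horizontal axis), with 1 marker per array and lines joining the 4 arrays of a condition. Both FASTKD2 probes lay lower on the PT and PT-G arrays than on the MED-CTL array of the same run in every run, and their level was higher in runs 3 and 4 than in runs 1 and 2 in all 4 conditions.

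FASTKD2 was on 2 probes, both on the plus strand of chromosome 2 in the array's annotation, which names no genome build. Probe A_23_P345830 lies at bases 207481945 to 207482004 and probe A_23_P209649 at bases 207482511 to 207482570, with 506 bases between them. On A_23_P345830 the MED-CTL arrays had 12.61, 12.69, 13.02 and 13.17 in runs 1 to 4. The PT-G arrays had 12.15, 12.25, 12.44 and 12.71, and the PT arrays 12.06, 12.15, 12.74 and 12.70. In each run both digests were below the medium array, although the groups overlapped because every condition was higher in runs 3 and 4. The run means over the 4 conditions were 12.32, 12.44, 12.82 and 12.91. The second FASTKD2 probe showed the same 2 features. A_23_P209649 had 9.69, 9.81, 10.35 and 10.38 on the MED-CTL arrays, 9.32, 9.50, 9.92 and 10.29 on the PT-G arrays and 9.23, 9.37, 9.83 and 9.78 on the PT arrays.

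On A_23_P345830 FASTKD2 differed by -0.48 under PT-G (SE 0.20, n = 4 arrays each, limma, adjusted p = 0.499) and by -0.46 under PT (SE 0.20, limma, adjusted p = 0.495). These correspond to -28.5% and -27.4%, and neither was called by condition alone (limma, unadjusted p = 0.0293 and 0.0362). The study had reported FASTKD2 as lower under both digests at its threshold, after a probe filter and re-annotation not used here. A second fit added the run as a block (the run-blocked fit), which left the differences as they were and gave them an SE of 0.07. Both were called in it, with a limma adjusted p = 0.00191 for PT-G and 0.00272 for PT. On A_23_P209649 the difference was -0.50 under PT (SE 0.24, limma, adjusted p = 0.577) and -0.30 under PT-G (SE 0.24, limma, adjusted p = 0.974). In the run-blocked fit both were called, at a limma adjusted p = 0.00671 for PT and 0.0797 for PT-G. Within the 4 runs the PT-G difference of A_23_P345830 was -0.47, -0.44, -0.58 and -0.46, and the PT difference was -0.56, -0.54, -0.28 and -0.47. For A_23_P209649 the PT difference was between -0.60 and -0.45 and the PT-G difference between -0.43 and -0.09. All 4 sets of 4 within-run differences lay below 0.

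FASTK was also on 2 probes, on the minus strand of chromosome 7 in the same annotation, at bases 150211368 to 150211427 (A_23_P502930) and 150211503 to 150211562 (A_23_P215140). The brighter, A_23_P502930, had median intensities between 27368 and 87401 before normalization, and none of its spots was marked as saturated. Its MED-CTL arrays had 15.85, 15.76, 15.46 and 15.54 in runs 1 to 4. The PT arrays had 15.48, 15.39, 15.17 and 15.06, and the PT-G arrays 15.42, 15.34, 15.43 and 15.37. The 4 PT-G arrays were closer together (SD 0.04) than the MED-CTL arrays (SD 0.18), and all of them lay below the lowest medium array. The PT and MED-CTL arrays overlapped by 1 array, the PT array of run 1. A_23_P215140 had 12.38, 12.37, 12.04 and 12.61 on the MED-CTL arrays, 12.04, 12.19, 11.92 and 11.96 on the PT arrays and 11.98, 12.03, 11.81 and 12.25 on the PT-G arrays. On this probe both digests were again lower than medium in each run.

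FASTK A_23_P502930 fell under PT by 0.37 on the log2 scale, a difference of -22.8% (SE 0.11, n = 4 arrays each, limma, adjusted p = 0.193). It was the only 1 of the 8 member probes called in PT against MED-CTL by condition alone, where 3.64% of all probes were called, and none passed the adjustment. The call was lost without MED-CTL replicate 1 (difference -0.34), MED-CTL replicate 2 (-0.31), PT replicate 3 (-0.34) or PT replicate 4 (-0.30). Its limma adjusted p in the run-blocked fit was 0.0318. Under PT-G the difference was -0.26 (SE 0.11, limma, adjusted p = 0.548), which was called in neither fit (run-blocked, limma, adjusted p = 0.139). A_23_P215140 differed by -0.33 under PT-G (SE 0.15, limma, adjusted p = 0.604) and by -0.32 under PT (SE 0.15, limma, adjusted p = 0.566). Both of these were called in the run-blocked fit, at a limma adjusted p = 0.0647 and 0.067. The within-run differences of A_23_P502930 were between -0.47 and -0.29 under PT and between -0.42 and -0.03 under PT-G, and those of A_23_P215140 between -0.64 and -0.12 and between -0.40 and -0.23. All 16 were negative.

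FASTKD1, a mitochondrial protein that limits the RNA of a complex I subunit, was on 2 probes of chromosome 2, minus strand. A_23_P28590, at bases 170219245 to 170219304, was well above background on all arrays. A_23_P307624, at bases 170210219 to 170210278, was well above background on 4 of 16 arrays (2 MED-CTL, 1 PT, 1 PT-G), and no fold is given for it. On A_23_P28590 the MED-CTL arrays had 11.63, 11.35, 11.73 and 11.29 in runs 1 to 4. The PT arrays had 11.37, 11.00, 11.16 and 11.10, and the PT-G arrays 11.30, 10.96, 11.50 and 11.40. PT was below medium in all 4 runs and PT-G in 3, run 4 being the exception at 0.11 higher. The PT difference was -0.34 (SE 0.14, limma, adjusted p = 0.43) and was called in the run-blocked fit (limma, adjusted p = 0.0715). The PT-G difference was -0.21 (SE 0.14, limma, adjusted p = 0.885) and was called in neither fit.

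FASTKD3, a member needed for full respiration, had 1 probe (A_23_P58489, chromosome 5, minus strand, annotated to bases 7912642 to 7914310, a span of 1669 bases). Its MED-CTL arrays had 11.35, 11.42, 11.56 and 11.62 in runs 1 to 4. The PT arrays had 11.27, 11.45, 11.79 and 11.77, and the PT-G arrays 11.36, 11.44, 11.41 and 11.90. The groups overlapped throughout. FASTKD3 differed by 0.08 under PT (SE 0.16, 95% interval -0.25 to 0.42, limma, adjusted p = 0.927) and by 0.04 under PT-G (SE 0.16, 95% interval -0.29 to 0.37, limma, adjusted p = 1.00).

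FASTKD5, which is needed to cut precursor RNAs that lack a transfer RNA at their junction, had 1 probe (A_23_P380724, chromosome 20, minus strand, bases 3075233 to 3075292). Its values spread little, with an SD of 0.04 over the MED-CTL arrays. These had 13.84, 13.80, 13.79 and 13.74 in runs 1 to 4, the PT-G arrays had 13.96, 13.85, 13.85 and 14.04 and the PT arrays 13.92, 13.83, 13.78 and 13.96. FASTKD5 was higher on each PT-G array than on any MED-CTL array, the opposite side from FASTK. The difference was 0.13 (SE 0.06, limma, adjusted p = 0.686) and was called in neither fit (run-blocked, limma, adjusted p = 0.289). Under PT it was 0.08 (SE 0.06, limma, adjusted p = 0.819).

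**Figure D2:**
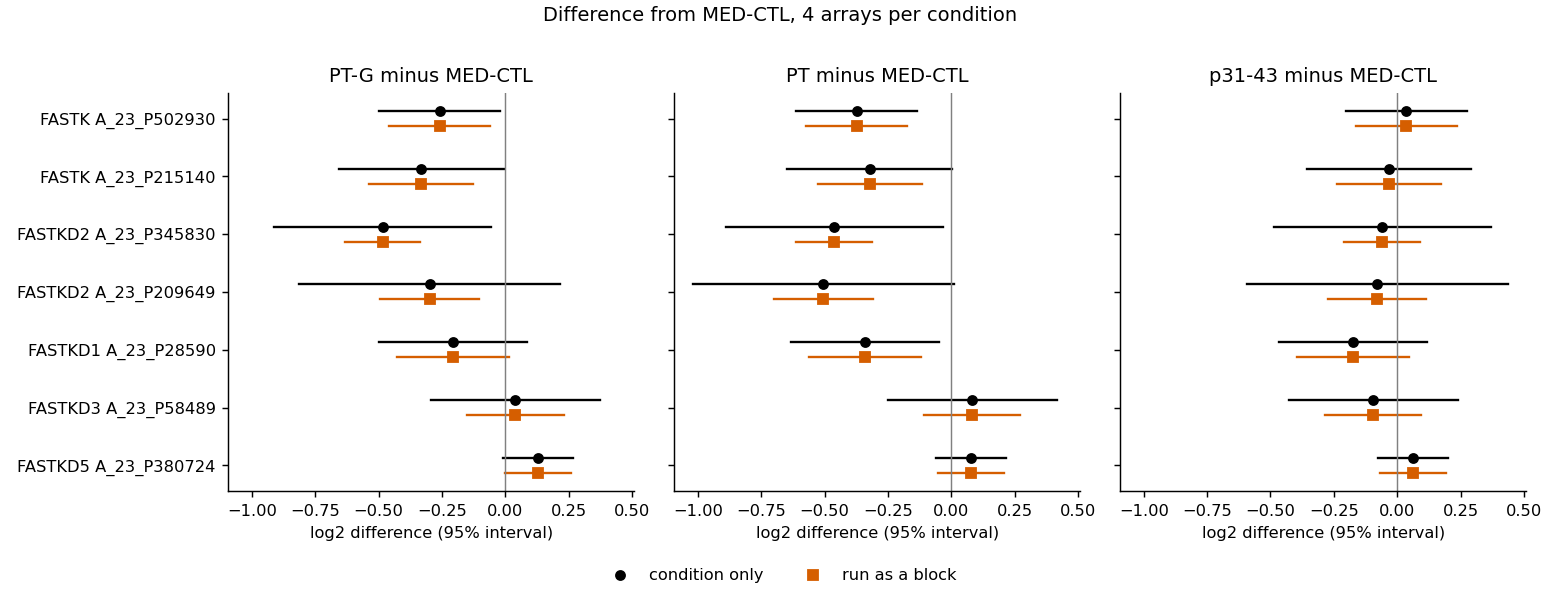
Log2 difference from MED-CTL (horizontal axis, point estimate and 95% interval from limma) of the 7 FASTK family probes that were well above background on all 16 arrays, for PT-G, PT and p31-43, 4 arrays per condition. Black circles are the fit by condition alone and orange squares the run-blocked fit, in which the intervals of FASTKD2 A_23_P345830 were -0.63 to -0.34 under PT-G and -0.61 to -0.31 under PT.

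By condition alone, 0 of the 8 member probes were called in PT-G against MED-CTL in limma, where 3.44% of all probes were called. An unadjusted p under 0.05 was found for 3, both FASTK probes and FASTKD2 A_23_P345830. The share of all probes under 0.05 was not worked out, so this count is not read as a result. In the run-blocked fit, 3 of 8 were called lower in PT-G against MED-CTL, where 4.24% of all probes were called lower, and 5 of 8 in PT against MED-CTL, where the share of all probes was 5.43%. An adjusted p under 0.05 was reached in that fit by 1 member probe for PT-G (2.54% of all probes, lower) and by 3 for PT (3.41%). The 2 probes of FASTK share a gene, as do those of FASTKD2 and of FASTKD1, so these counts are not counts of independent genes. In PT against MED-CTL 5 of 8 probes were lower in all 4 runs, against 13.5% of all probes, and in PT-G against MED-CTL 5 of 8, the dim FASTKD1 probe included, against 14.9%. The PT-G and MED-CTL arrays did not overlap for 2 of 8 probes (3.87% of all probes), FASTK A_23_P502930 and FASTKD5. The 8 probes had a median difference of -0.23 for PT-G, -0.33 for PT and -0.07 for p31-43, and the median over all probes was within 0.01 of 0 in each. PT-G and PT are compared with the same MED-CTL arrays. Among the cell type markers, KRT20, a keratin of differentiated colon epithelium, was the 1 epithelial marker called by condition alone, higher by 0.63 under PT-G and 0.50 under PT (limma, adjusted p = 0.0251 and 0.0884). Blocked by run, CDX2, an intestinal transcription factor, was also called lower under both digests (-0.72 and -0.64), VIL1 under PT (-0.20), and the fibroblast marker COL3A1, 1 of 4, under both (-0.45 and -0.52). No leukocyte or endothelial marker reported here was called in either fit. The part of these shifts in the members' differences was not tested.

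**Figure D3:**
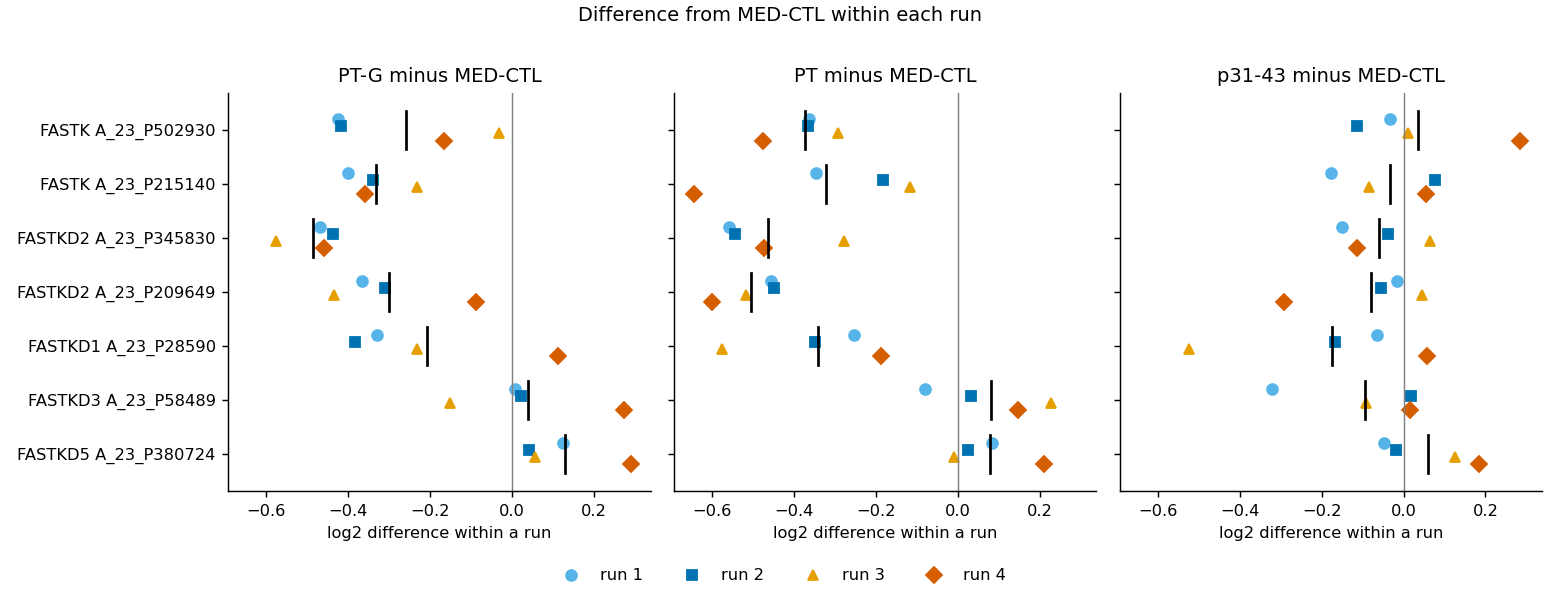
Log2 difference from the MED-CTL array of the same run (horizontal axis) for the 7 FASTK family probes that were well above background on all 16 arrays, with 1 marker per run and a black bar at the mean of the 4 runs. Under PT-G and PT all 4 runs lay below 0 for both FASTKD2 probes and both FASTK probes, and under p31-43 no probe had all 4 runs on 1 side.

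The peptide p31-43 was compared with MED-CTL to ask what a single gliadin sequence does without digestive enzymes. On FASTKD2 A_23_P345830 its arrays had 12.46, 12.65, 13.08 and 13.06 in runs 1 to 4. On FASTK A_23_P502930 they had 15.81, 15.64, 15.47 and 15.82. These values overlapped the MED-CTL values on both probes. No member probe was called (limma, 0 of 8, with 0.388% of all probes called and no member with an unadjusted p under 0.05), nor in the run-blocked fit. The difference was -0.06 for FASTKD2 A_23_P345830 (95% interval -0.49 to 0.37) and 0.04 for FASTK A_23_P502930 (-0.20 to 0.28). The run-blocked intervals were -0.21 to 0.09 and -0.16 to 0.23. FASTKD1 A_23_P28590, whose arrays had 11.56, 11.18, 11.21 and 11.35, differed most among the probes well above background, by -0.17 (SE 0.14, limma, adjusted p = 1.00). FASTKD3 differed by -0.10 and FASTKD5 by 0.06.

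The digests were also compared with p31-43 directly. FASTK A_23_P502930 was lower under PT than under p31-43, by -0.41 (SE 0.11, n = 4 arrays each, limma, adjusted p = 0.152), the only 1 of 8 member probes called, where 3.15% of all probes were called. The call was lost without PT replicate 4 (difference -0.34). In the run-blocked fit 4 of 8 were called lower (4.89% of all probes), both FASTKD2 and both FASTK probes, and 3 had an adjusted p under 0.05 (2.75% of all probes). FASTKD2 A_23_P345830 differed in that fit by -0.40 (SE 0.07, limma, adjusted p = 0.00588). For PT-G against p31-43, 0 of 8 were called by condition alone in limma (3.73% of all probes). FASTK A_23_P502930 differed by -0.30 (limma, adjusted p = 0.38). It was the only member probe with an unadjusted p under 0.05, a threshold for which the share of all probes was not worked out. When p31-43 replicate 3 was left out, 1 probe was called, where 3.65% of all probes were called. Blocked by run, 3 of 8 were called lower (4.91% of all probes), FASTKD2 A_23_P345830 at -0.42 (SE 0.07, limma, adjusted p = 0.00378) and the 2 FASTK probes at limma adjusted p = 0.0842 and 0.0905.

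PT-G was compared with PT to ask what gliadin adds to the enzymes. By condition alone no member probe was called (limma, 0 of 8, none with an unadjusted p under 0.05, beside 0.0903% of all probes called). FASTKD2 A_23_P345830 differed by -0.02 (95% interval -0.45 to 0.41) and FASTK A_23_P502930 by 0.11 (-0.12 to 0.35). Blocked by run, the intervals were -0.17 to 0.13 and -0.08 to 0.31. The second FASTKD2 probe was 0.21 higher under PT-G and higher in all 4 runs, with 0.09, 0.14, 0.08 and 0.51 in runs 1 to 4. Its run-blocked interval was 0.01 to 0.40 (run-blocked, limma, unadjusted p = 0.0397, adjusted p = 0.899). FASTKD5 was also higher in all 4 runs, by 0.05 on average. The share of all probes higher in all 4 runs was not worked out. Intervals this wide do not show that the digests act alike on these genes.

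Differences within an array put the members beside each other. The log2 value of FASTKD2 A_23_P345830 less that of FASTKD3 was between 1.26 and 1.55 on the MED-CTL arrays, between 0.79 and 1.03 on the PT-G arrays and between 0.70 and 0.95 on the PT arrays. FASTK A_23_P502930 less FASTKD5 was between 1.67 and 2.01 on the MED-CTL arrays, between 1.33 and 1.58 on the PT-G arrays and between 1.11 and 1.56 on the PT arrays. In both pairs the digests lay below medium without overlap. FASTKD2 less FASTKD5 did not overlap medium (-1.22 to -0.58) under PT-G (-1.81 to -1.33) but did under PT (-1.86 to -1.04). FASTK less FASTKD2 overlapped between the conditions, at 2.37 to 3.23 on the MED-CTL arrays and 2.36 to 3.43 on the PT arrays. These pairs were picked after the values were seen. Of all 20 such differences (10 pairs of members, 2 digests), 6 did not overlap medium. This is the smallest p a 2-sided exact permutation test can give here (p = 0.0286, Benjamini-Hochberg adjusted over the 20, 0.0952), so none passed the adjustment. All 20 reuse the brightest probes of the same 5 genes, so they are not independent tests. Under PT-G, FASTK and FASTKD5 had each cleared medium on opposite sides, so their difference could not overlap it. The share of such pairs among all probes was not worked out.

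Other genes of mitochondrial RNA metabolism were taken from lists of current symbols, each by its brightest probe. TBRG4, the remaining member of the family, was 0.16 from medium on PT arrays, 0.04 on PT-G arrays and 0.12 on p31-43 arrays and was called in no comparison (limma, adjusted p = 0.818, 1.00 and 1.00). Among 9 genes of mitochondrial transcription, 1 was called lower under PT-G and 1 under PT by condition alone, where 1.52% and 1.84% of all probes were called lower, and none was called higher. It was TEFM, the mitochondrial transcription elongation factor, at -0.50 under PT-G (SE 0.11, limma, adjusted p = 0.046) and -0.50 under PT (SE 0.11, limma, adjusted p = 0.0528). Its p31-43 difference was -0.03. Among 14 genes of RNA processing, stability and decay, 1 was called lower under each digest. PTCD1, a mitochondrial pentatricopeptide repeat protein, differed by -0.47 under PT-G (SE 0.09, limma, adjusted p = 0.0273) and by -0.53 under PT (SE 0.09, limma, adjusted p = 0.014). Its p31-43 difference was -0.02.

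Of 17 genes of the mitochondrial RNA granule and of RNA modification, 1 was called lower under PT-G and 2 under PT. By condition alone 1.52% and 1.84% of all probes were called lower. MRM1, a ribosomal RNA methyltransferase, differed by -0.48 and -0.46 (limma, adjusted p = 0.0901 and 0.109), and TRMT5, a transfer RNA methyltransferase, by -0.52 under PT (limma, adjusted p = 0.151). These 2 and the genes named in the rest of this paragraph were chosen after their values were seen. In the run-blocked fit, 5 of the 17 were called lower under PT-G and 5 under PT, beside 4.24% and 5.43% of all probes, and none higher. Those of PT-G were DDX28, RPUSD4, MRM1, MRM2 and NSUN4, proteins of the granule or enzymes that modify mitochondrial ribosomal RNA, with differences between -0.48 and -0.18. In the same fit 1 of the 9 transcription genes under PT-G and 2 under PT, and 2 and 3 of the 14 processing genes, were called lower. MTPAP, the mitochondrial poly(A) polymerase, differed by -0.55 under PT (run-blocked, limma, adjusted p = 0.0182, and 0.505 by condition alone). Its p31-43 difference was -0.29 (run-blocked, limma, adjusted p = 0.807). PT against p31-43 differed by -0.26 for it (run-blocked, limma, adjusted p = 0.297). Under p31-43 none of the 3 lists had a gene called by condition alone. With the run block 1 gene was called, MRM3, a ribosomal RNA methyltransferase, higher by 0.32 (run-blocked, limma, adjusted p = 0.668), where 0.713% of all probes were called higher. The median difference was -0.13 under PT-G and -0.28 under PT for the transcription genes, 0.05 and -0.07 for the processing genes, and -0.16 and -0.15 for the granule and modification genes, against -0.01 and -0.01 over all probes. None of the 15 mitochondrially encoded RNAs was matched to a probe name, so the RNAs these proteins act on were not analysed here.

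Of 11 genes of the Fas receptor pathway and of FASTK partners, none was called under any treatment by condition alone in limma. FAS, the receptor, was well above background on 2 of 16 arrays and its ligand FASLG on 7, so no difference is read from them. In the run-blocked fit 1 of the 11 was called higher under each digest, where 4.92% of all probes were called higher under PT-G and 4.86% under PT. It was DAXX, an adaptor of Fas signalling, at 0.29 under PT-G and 0.35 under PT (run-blocked, limma, adjusted p = 0.0135 and 0.00511). TIA1, the RNA-binding partner of FASTK, was the 1 gene called lower, under PT, at -0.50 (run-blocked, limma, adjusted p = 0.0365). In that fit 5.43% of all probes were called lower under PT. DAXX and TIA1 were named after their values were seen.

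**Figure D4:**
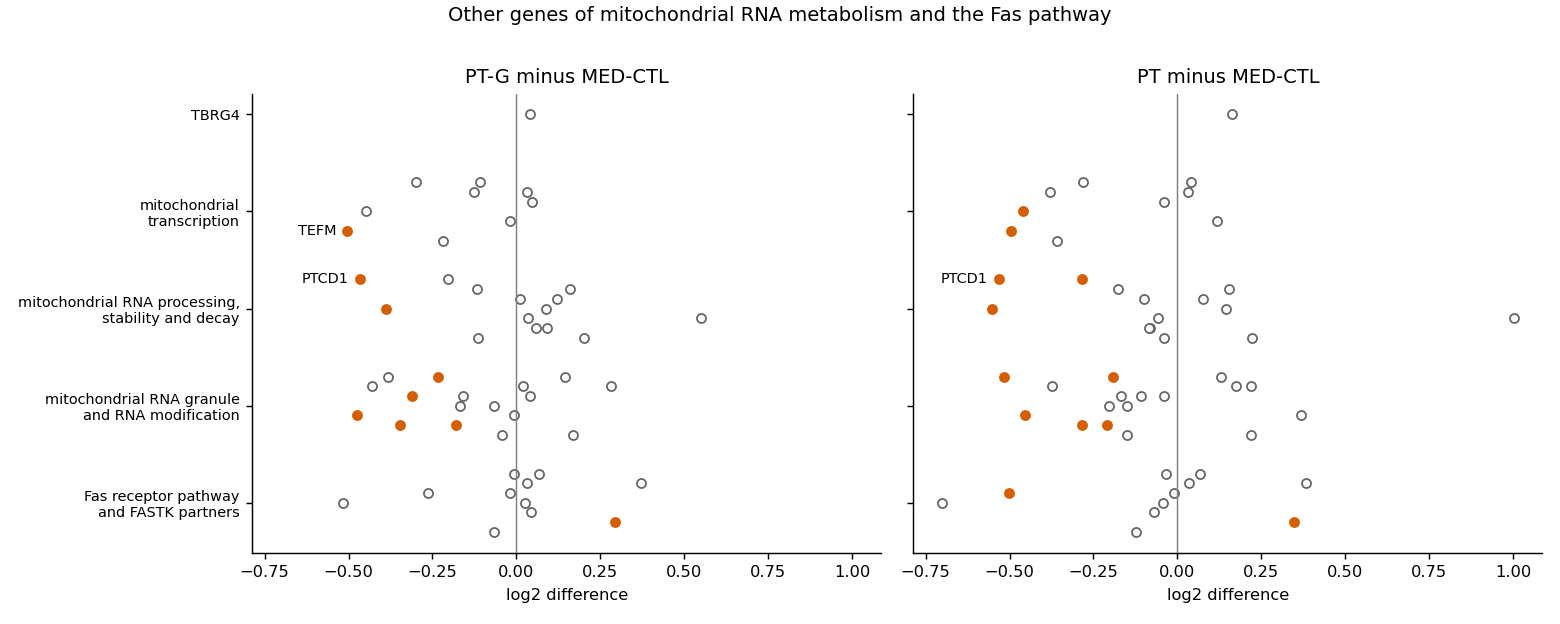
Log2 difference from MED-CTL (horizontal axis) of the brightest probe of each gene in 5 lists, with PT-G on the left and PT on the right, 4 arrays per condition. Filled orange circles were called in the run-blocked fit, open circles did not, and the genes printed by name had an adjusted p under 0.05 by condition alone, TEFM and PTCD1 under PT-G and PTCD1 under PT.

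The pattern of each member over the 16 arrays was compared with that of about 19102 probes of other named genes after subtraction of each run's mean, as a description without a test. Arrays share treatments, so any genes that respond to the digests correlate. In the array's names, FASTK A_23_P502930 was most like ZMYM6, ZNF7 and TROAP (Pearson r = 0.977, 0.964 and 0.960), and FASTKD2 A_23_P345830 was most like PHF19 and FTS (0.962 and 0.960). FASTKD1 was most like ADPRHL1 (0.948), FASTKD3 like ASGR2 (0.906) and FASTKD5 like ZDHHC2 (0.864). Among the members, FASTK correlated with FASTKD2 at 0.724 and with FASTKD1 at 0.684, and FASTKD5 with FASTKD2 at -0.513. The 2 probes of FASTK correlated with each other at 0.873 and the 2 of FASTKD2 at 0.826.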

How the data were processed

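RNA from 16 Caco-2 cultures was labelled with 1 dye and read on whole genome Agilent arrays, with Agilent Feature Extraction 9.5.3.1 per the file headers. The deposited intensity of each spot is its median foreground on a linear scale, which the authors did not background-correct, and the authors normalized it with the quantiles method. Their deposited log2 values were matched here within 5e-09 by that method over all spots. Here the 1639 control spots of 45015 were left out before the same normalization, and 0.256% of the remaining spots over all arrays, marked as outliers, after it. A probe needed 3 unmarked arrays in every group, which 18 did not have, and the mean of a probe's spots was used.

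All 4 conditions were fitted in 1 model with limma 3.58.1 in R 4.3.3 over 40982 probes (12 residual and 1.88 prior degrees of freedom, moderated 2-sided tests), and rows of the FASTK family, of the gene lists and of cell type markers are reported. The study's filter and re-annotation of probes was not used. Members, lists and rules were chosen with earlier results of these data known. Named by rule are all member probes, TBRG4, genes of the lists with an adjusted p under 0.05 by condition alone, and the probes most like each member, up to 3. Other genes of the lists, FAS and FASLG included, and the markers called were named after their values were seen. A marker of 1 list and 1 of the probes most like a member are not reported here. Symbols were updated through RefSeq accessions, of which 23428 of 25140 matched. Alternatives were other signals, background corrections and scalings, the deposited table, filters, blocks for replicate, run or slide, array weights, an intensity trend, fits of only 2 groups, and leaving out each array. The model was tested on simulated data. For 2 arrays of 1 run, the correlation over probes of their deviations from the group means was 0.628 to 0.857 for PT-G with MED-CTL, 0.538 to 0.707 for p31-43 with MED-CTL and -0.01 to 0.62 for PT with MED-CTL. For 2 arrays of 1 replicate number in the labels it was 0.395 to 0.857, 0.262 to 0.707 and -0.01 to 0.411. Precision is limited by the number of arrays.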

Additional observations from a re-analysis of the deposited data

Results flagged for a closer look

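One of 32 groups of 4 arrays held a value far from the other 3. For FASTKD3 under PT-G, replicate 4 had 11.90 while the others were between 11.36 and 11.44. Its gap to the nearest of the others, divided by the range of the group, was 0.846. Chance gives such a value in about 1 in 20 groups.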

How the results depend on the processing

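Of 1482 values of member probes under 31 alternatives, 1358 kept direction and side of the threshold, 59 gained a call and 10 lost one. Another 55, none called in either fit, changed sign, 49 by less than the standard error of the difference and 6 by more. The 2 calls made by condition alone, both of FASTK A_23_P502930, in PT against MED-CTL and in PT against p31-43, accounted for all 10 losses.

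With the replicate number as a block, MED-CTL replicates 1 and 2 were set beside arrays of another run. That fit called 3 member probes in PT-G against MED-CTL, 4 in PT against MED-CTL, 3 in PT-G against p31-43 and 3 in PT against p31-43. It called 0 in the other 2 comparisons. In the same order of 4 comparisons a run block gave 3, 5, 3 and 4, a slide block 3, 4, 2 and 4, and array weights 2, 1, 2 and 1. In PT-G against MED-CTL the share of all probes called rose as well, from 3.44% to 7.59% with the replicate block, 9.16% by run, 12.2% by slide and 7.43% with weights, and in PT against MED-CTL from 3.64% to 8.49%, 10.3%, 10.6% and 6.15%. In the same order of settings the share rose from 3.73% to 8.07%, 9.63%, 10.9% and 7.1% in PT-G against p31-43. In PT against p31-43 it rose from 3.15% to 7.01%, 8.42%, 10.5% and 5.08%. Blocks added after the data were seen gave 1, 3, 1 and 3 for the processed signal blocked by run. The shares of all probes there were 7.39%, 8.47%, 8.15% and 6.74%. For the deposited log2 table blocked by run the counts were 3, 5, 3 and 4, beside 9.11%, 10.2%, 9.6% and 8.4%.

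By condition alone, PT against MED-CTL had 0 called with the processed signal, median scaling, a filter on dim probes or only the 2 groups compared. In the same order, 2.76%, 2.66%, 4.18% and 2.73% of all probes were called. FASTK A_23_P502930 then differed by -0.42, -0.34, -0.37 and -0.37 (limma, adjusted p between 0.24 and 0.539). PT against p31-43 had 0 with the processed signal, beside 2.4% of all probes. FASTK A_23_P502930 differed there by -0.31 (limma, adjusted p = 0.798). Median scaling moved the median of all probes in PT against MED-CTL to -0.11, so relative to it FASTK differed less. The processed signal moved the median in PT against p31-43 the other way, to 0.11. Relative to that median, FASTK was lower by more than the -0.31 given. Leaving out 1 array gave between 0 and 1 calls in PT against MED-CTL, in PT against p31-43 and in PT-G against p31-43, and 0 in the others. The shares of all probes called were 2.64% to 4.58%, 2.39% to 3.65% and 2.88% to 4.34% in those 3 comparisons. In PT-G against MED-CTL the share was 2.58% to 4.11%. The cause was not tested. The dim FASTKD1 probe and the low FAS and FASLG signals set what these arrays could show for those genes.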
